A study of Homo sapiens with 6 samples.

Results

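The cardiac myosin genes were followed across 6 RNA-seq libraries of cardiomyocytes differentiated from H9, a human embryonic stem cell line. The labels call these cells hiPSC-CMs, for human induced pluripotent stem cell-derived cardiomyocytes. They were matched by gene symbol, and 7 of the 21134 genes in the series table were members, namely the heavy chain genes MYH6, MYH7 and MYH7B and the light chain genes MYL2, MYL3, MYL4 and MYL7. The groups were untreated cells (control, n = 2), cells given 100 mM alcohol for 24 h (alcohol, n = 2), and cells given 100 mM alcohol together with 1 μM losartan, an angiotensin II type 1 receptor blocker, for 24 h (co-treated, n = 2). All 6 libraries came from the same cell line, no group received losartan alone, and no source used here says whether the 2 libraries of a group came from separate differentiations, so p-values measure only the spread between these libraries, which may be technical. The study asked how alcohol affects cardiomyocytes and whether losartan alters that effect.

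Myosin II is the motor of the thick filament, in which a pair of heavy chains carries the ATPase heads and each head binds an essential and a regulatory light chain. In the adult human heart MYH7 encodes the slow β heavy chain of the ventricle and MYH6 the faster α heavy chain, which is most abundant in the atria, while MYH7B is an ancient relative found at low levels in slow muscle and heart. Of the regulatory light chains MYL2 belongs to the ventricle and MYL7 to the atria, and of the essential light chains MYL3 belongs to the ventricle and MYL4 to the atria and the fetal heart. Immature cardiomyocytes carry atrial and fetal chains also in cells that later become ventricular, so the ratios of MYH7 to MYH6 and of MYL2 to MYL7 are commonly read as indices of maturity or chamber type.

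Library depth was similar, at 4898287 to 5051448 expected counts, so that 3 counts, taken as the floor, corresponded to 0.594 to 0.612 CPM (counts scaled to library size). The 12 cardiomyocyte markers were all detected, and their summed FPKM (fragments scaled for transcript length and library size) ranged from 9877 to 13364, with TNNT2, the cardiac troponin T gene, at 3194 to 3728 FPKM. The skeletal muscle regulators MYOD1, MYF5 and PAX7 were not listed in the table. The 6 listed skeletal muscle markers summed to 284 to 341 FPKM, though only 3 of them passed the filter on low counts. That sum is not broken down by gene here and is not read as a sign of skeletal muscle cells. The endothelial genes VWF and ERG reached at most 5 counts in any library, while the 8 endothelial markers together summed to 20.3 to 26.9 FPKM. Smooth muscle markers (1005 to 2333 summed FPKM over 8 genes) and fibroblast markers (1094 to 1317 over 10 genes) were also present, including genes such as TAGLN (340 to 998 FPKM) that immature cardiomyocytes can express. In bulk RNA, fewer cells of a type and less RNA per cell cannot be told apart.

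To show what the genes compared here share, sequences are given for the promoters of 2 atrial-type members, and for the longest stretch common to both main heavy chain transcripts. RefSeq (GRCh38.p14) promoter windows covered 3 of the 7 members, MYH6, MYL3 and MYL7, but the MYL3 window ended 1799 bases from the start of the annotated GENCODE transcript matched to the gene and is not shown. Each window below is the 250 bases before the transcription start, written 5′ to 3′ on the gene's strand, at chr14:23408274-23408523 for MYH6 and chr7:44141333-44141582 for MYL7, both on the minus strand. Capitals mark matches, on either strand, to 5 motifs, namely TATAAA for the TATA box, CATTCCT for the M-CAT element bound by TEAD factors, TGATAA for the GATA site, the CArG box bound by SRF, and the MEF2 site.

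MYH6 promoter: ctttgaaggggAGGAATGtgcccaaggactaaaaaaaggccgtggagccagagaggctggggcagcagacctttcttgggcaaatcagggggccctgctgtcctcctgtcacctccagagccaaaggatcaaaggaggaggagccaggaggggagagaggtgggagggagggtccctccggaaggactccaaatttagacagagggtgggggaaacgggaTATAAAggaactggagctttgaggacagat

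MYL7 promoter: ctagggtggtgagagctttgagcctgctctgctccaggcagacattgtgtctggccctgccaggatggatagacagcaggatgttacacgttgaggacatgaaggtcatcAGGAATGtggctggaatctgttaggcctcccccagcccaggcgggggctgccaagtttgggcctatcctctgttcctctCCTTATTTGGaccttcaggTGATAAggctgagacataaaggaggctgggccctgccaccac

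Both windows held the reverse M-CAT letters, AGGAATG, which lay 239 bases before the start in MYH6 and 140 bases before it in MYL7, and 3.90% of the 35116 human promoter windows of this length held such a match. The MYH6 window also had TATAAA 30 bases before the start, as 10.7% of windows did. In MYL7 a CArG box lay 61 bases before the start (1.16% of windows) and TGATAA 42 bases before it (6.66% of windows). No MEF2 match was found in either window, against 2.80% of all windows. The E-box letters CANNTG, not capitalised, matched once in MYL7 beginning 46 bases before the start and overlapping the GATA match, and 61.8% of windows had such a match. A match describes letters only.

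MYH6 (chr14:23381987-23408273) and MYH7 (chr14:23412740-23435660) lie side by side on the minus strand, and their transcripts are near copies in places. Of the 50-base windows of the MYH6 transcript, 14.8% occurred unchanged in MYH7, whereas no other pair of members shared a single window of that length. The longest common run was 395 bases, of which 390 fill exon 26 of MYH6 (chr14:23390057-23390446) and exon 27 of MYH7 (chr14:23419845-23420234), both coding exons of the myosin tail. The first 150 bases of that exon, on the coding strand, are shown because a read inside the run cannot be assigned to either gene by its sequence (chr14:23390297-23390446 in MYH6, chr14:23420085-23420234 in MYH7).

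MYH6 and MYH7 common run: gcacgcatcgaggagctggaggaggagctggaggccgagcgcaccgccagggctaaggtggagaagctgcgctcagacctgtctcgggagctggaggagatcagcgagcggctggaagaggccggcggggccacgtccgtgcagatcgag

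Expected counts of both genes were fractional in every library, and RSEM, the tool the submitters name, divides shared reads by estimate. How much of the MYH6 and MYH7 counts rests on that division is uncertain, so values for their sum are given beside those for each gene.

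All 7 members were well above the floor, and the order of their levels per length was led by the atrial-type light chains. MYL7 was the most abundant transcript at 12452 ± 2578 FPKM (SD, n = 6), and it ranked first or second of all genes in every library. MYL4 followed at 5166 ± 612 FPKM, MYH7 at 2779 ± 473, MYL2 at 1962 ± 899, MYL3 at 1456 ± 275, MYH6 at 477 ± 195 and MYH7B at 38.6 ± 8.02. MYL7, MYL4, MYH6 and MYH7B each occupied a range that no other member entered, the nearest approach being that of MYL2 at its lowest (821 FPKM) to MYH6 at its highest (737 FPKM). MYL2 overlapped both of its neighbours, MYH7 (2084 to 3429 FPKM) and MYL3 (1178 to 1849 FPKM), so the order of those genes was not fixed. Together the members took 3.07% of all counts in alcohol 2 (95% Wilson interval 3.05% to 3.08%) and 3.93% in alcohol 1 (3.92% to 3.95%), with the other libraries between them. These intervals and the floor cover counting error only.

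**Figure D1:**
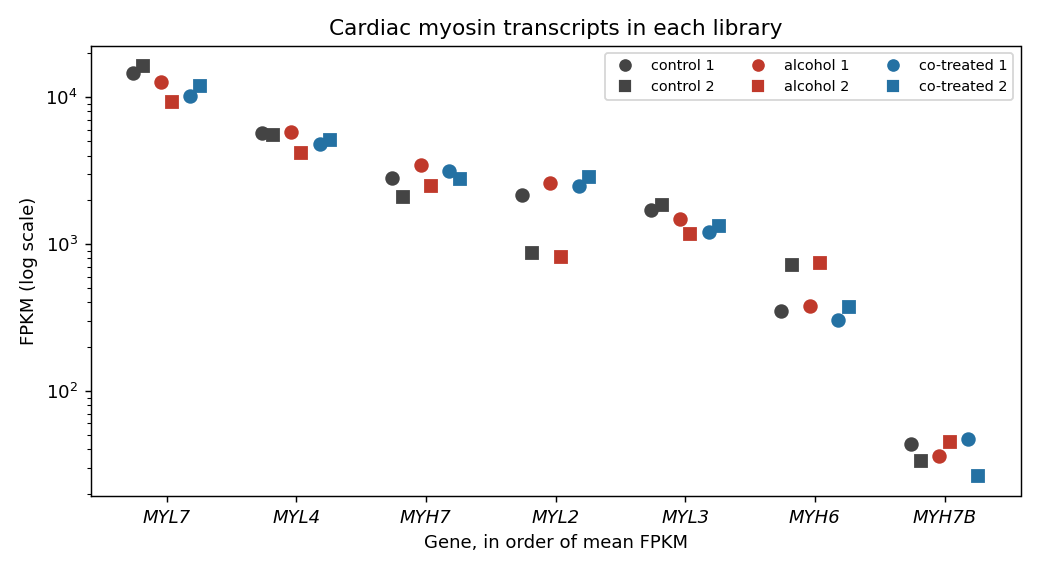
FPKM of each member (x axis, in order of the mean over 6 libraries) on a log scale, 1 point per library, coloured by group with a circle for the first and a square for the second library of each group. MYL7 and MYL3 of both controls lie above all 4 alcohol-exposed libraries, while MYL2 is low and MYH6 is high in control 2 and alcohol 2.

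The atrial regulatory light chain MYL7 and the ventricular essential light chain MYL3 were lower in every alcohol-exposed library than in either control, with or without losartan, but neither passed the test across all genes. MYL7 measured 14512 and 16180 FPKM in the controls, 12612 and 9321 in the alcohol libraries, and 10240 and 11847 in the co-treated libraries. The 4 exposed libraries did not overlap with the controls, and alcohol 2 was the lowest of them. The fitted log2 fold change was -0.52 (SE 0.17, adjusted p = 0.273, edgeR) for alcohol against control, a fold of 0.699, and -0.52 (SE 0.17, adjusted p = 0.224) for co-treated against control. Between co-treated and alcohol the difference was -0.0028 (SE 0.17, adjusted p = 1.00). MYL3 measured 1712 and 1849 FPKM in the controls, 1474 and 1178 after alcohol, and 1205 and 1320 after co-treatment. MYL3 thus had the same arrangement as MYL7, with the controls on top and the exposed groups overlapping each other. Its log2 fold change was -0.46 (SE 0.15, adjusted p = 0.257) for alcohol against control and -0.54 (SE 0.15, adjusted p = 0.133) for co-treated against control, and it was -0.08 (SE 0.15) between the exposed groups. Both comparisons with control share the same 2 control libraries.

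Those calls depended on the library and on the tool. Without alcohol 1 the alcohol group was the single library alcohol 2, the lower of the pair for both genes and assumed to vary like the other groups, and MYL7 and MYL3 then passed in alcohol against control at adjusted p = 0.0303 and 0.0460 (edgeR), where the alternatives as a whole ran from 0.0303 to 0.922 for MYL7 and from 0.0460 to 0.919 for MYL3. In co-treated against control MYL3 passed with DESeq2 (adjusted p = 0.0159) and without alcohol 1 (0.0456), within a range of 0.0159 to 0.501. MYL7 and MYL3 transcripts are short, at 619 and 942 bases, and the 875 tested genes of at most 1000 bases had a median log2 fold change of 0.0057 for alcohol against control and -0.04 for co-treated against control. Smooth muscle markers summed to 2333 and 2036 FPKM in the controls, 1850 and 1005 after alcohol, and 1324 and 1359 after co-treatment, below control in every exposed library as MYL7 and MYL3 were, and 7 of the 8 genes had lower estimates in each comparison with control. The 12 cardiomyocyte markers summed to 13364 and 11816, to 12671 and 9877, and to 10551 and 10854 FPKM in the same order, so alcohol 1 lay above control 2. Their estimates were lower for 7 and higher for 5 after alcohol (median log2 fold change -0.09), and lower for 9 and higher for 3 after co-treatment (median -0.23), each against control. Fibroblast markers summed to 1225 and 1094, to 1317 and 1298, and to 1291 and 1181 FPKM, with 6 and 7 of 10 estimates higher than control. The part of these markers in the result was not tested.

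The remaining light chains behaved differently from MYL7 and from each other. MYL4, the atrial and fetal essential light chain, measured 5719 and 5496 FPKM in the controls, 5749 and 4187 after alcohol, and 4774 and 5073 after co-treatment. The alcohol libraries bracketed both controls, whereas both co-treated libraries lay below them. Its log2 fold change was -0.21 (SE 0.17, adjusted p = 0.708) for alcohol and -0.23 (SE 0.17, adjusted p = 0.619) for co-treatment, each against control. MYL2, the ventricular regulatory light chain and a marker that the study stained together with cardiac troponin T in its cardiomyocytes, measured 2139 and 863 FPKM in the controls, 2610 and 821 after alcohol, and 2478 and 2862 after co-treatment. Control 2 and alcohol 2 were far below the other 4 libraries, so the control and alcohol groups covered nearly the same range. The log2 fold change of MYL2 was 0.17 (SE 0.44, adjusted p = 0.928) for alcohol against control, 0.61 (SE 0.44, adjusted p = 0.923) for co-treated against alcohol, and 0.78 (SE 0.44, adjusted p = 0.501) for co-treated against control. Both co-treated libraries were above both controls, but alcohol 1 lay between them.

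Among the heavy chains, MYH6 was higher in control 2 and alcohol 2 than in the other 4 libraries, and MYH7 was lower in those same 2 libraries. MYH6, the α heavy chain gene, measured 349 and 717 FPKM in the controls, 381 and 737 after alcohol, and 305 and 374 after co-treatment. Both co-treated libraries were below both alcohol libraries, although the gap between alcohol 1 and co-treated 2 was narrow. The log2 fold change was 0.02 (SE 0.29, adjusted p = 0.990) for alcohol against control, -0.71 (SE 0.29, adjusted p = 0.878) for co-treated against alcohol, and -0.69 (SE 0.29, adjusted p = 0.345) for co-treated against control. MYH7, the β heavy chain gene, measured 2813 and 2084 FPKM in the controls, 3429 and 2474 after alcohol, and 3126 and 2749 after co-treatment. All 3 groups overlapped, and its log2 fold changes were 0.23, -0.02 and 0.21 in that order of comparisons (SE 0.20 in each, adjusted p = 0.722, 0.994 and 0.720). With the MYH6 and MYH7 counts added to form 1 feature, the log2 fold changes were 0.20, -0.11 and 0.09 (SE 0.15 in each, adjusted p = 0.688, 0.962 and 0.862). MYH7B, at chr20:34955868-35002437, measured 43.5 and 33.3 FPKM in the controls, 36.1 and 45.0 after alcohol, and 47.3 and 26.4 after co-treatment. Its co-treated pair held both the highest and the lowest value of the series, and its log2 fold changes of 0.03, -0.15 and -0.11 each had an SE of 0.21 (adjusted p = 0.974, 0.962 and 0.880).

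**Figure D2:**
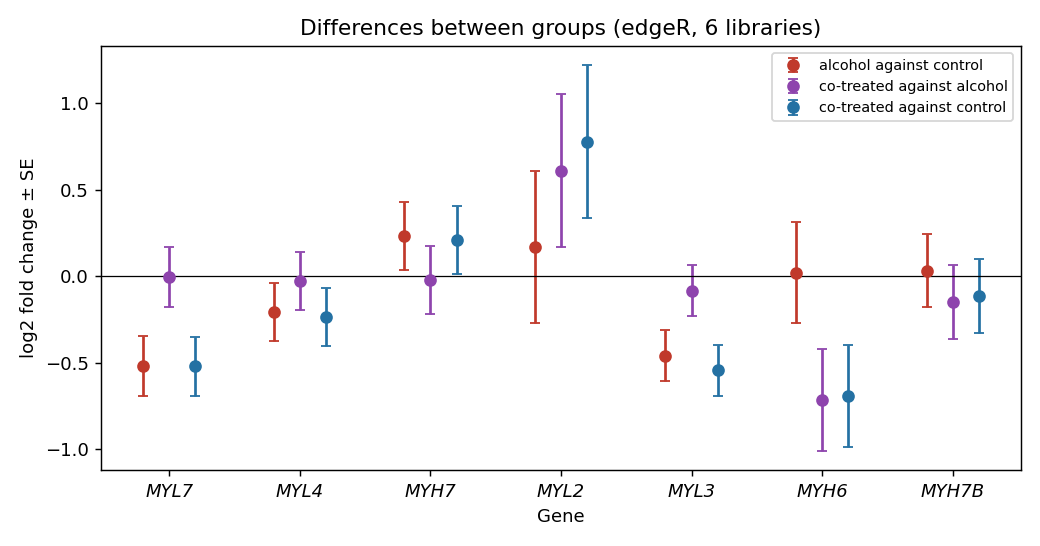
Fitted log2 fold change (y axis, bars show the SE) of each member in the 3 comparisons, from edgeR on 6 libraries. MYL7 and MYL3 sit near -0.5 in both comparisons with control and near 0 between the exposed groups, and MYL2 and MYH6 have the widest bars.

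Taken by counts, none of the 7 members passed an adjusted p of 0.05 in any comparison with edgeR. Over all 14926 genes tested, the share that passed was 0.067% for alcohol against control, 0.0134% for co-treated against alcohol and 0.362% for co-treated against control. At an unadjusted p under 0.05, 2 members were lower after alcohol (MYL3 and MYL7, where 5.78% of genes were lower), 1 was lower in co-treated than in alcohol (MYH6, 2.71% of genes) and 3 were lower in co-treated than in control (MYH6, MYL3 and MYL7, 6.37% of genes), and no member was higher. Values did not overlap between groups for 2 members lower after alcohol (21.8% of genes), for MYH6 lower in co-treated than in alcohol (16.2%), and in co-treated against control for MYL3, MYL4 and MYL7 on the lower side (21.7%) and MYL2 on the higher side (21.6%). With 2 libraries a group, such separation is common among all genes. DESeq2 passed 0, 0 and 1 member in the 3 comparisons, and limma on log2(FPKM + 1) passed 0 in each.

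The balance of slow and fast heavy chains varied more within the control and alcohol pairs than between groups. MYH7 exceeded MYH6 by 8.05 and 2.91 times in the controls, 9.00 and 3.36 times after alcohol, and 10.3 and 7.35 times after co-treatment, per length. On a log2 scale the ratio was 2.27 ± 1.04 over the controls, 2.46 ± 1.01 over the alcohol libraries and 3.12 ± 0.34 over the co-treated ones (SD, n = 2). The differences of 0.18 (alcohol against control), 0.66 (co-treated against alcohol) and 0.84 (co-treated against control) each had p = 0.667 in an exact two-sided permutation test, and 2 against 2 libraries cannot give a p below 0.333. MYH6 made up 10.9% and 25.3% of heavy chain FPKM in the controls, 9.91% and 22.6% after alcohol, and 8.76% and 11.9% after co-treatment.

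The ratio of MYL2 to MYL7 was 0.147 and 0.0533 in the controls, 0.207 and 0.0880 after alcohol, and 0.242 in both co-treated libraries. Every library carried more of the atrial than of the ventricular regulatory light chain, with MYL7 ahead by 4.13 times in co-treated 1 and by 18.8 times in control 2. The log2 ratio was -3.50 ± 1.04 over the controls, -2.89 ± 0.87 over the alcohol libraries and -2.05 ± 0.0017 over the co-treated ones (SD, n = 2). The co-treated pair lay above the other 4 libraries, by 0.84 against alcohol and 1.45 against control on the log2 scale, each with p = 0.333 in the exact permutation test, the smallest p attainable. Alcohol against control differed by 0.61 (exact permutation p = 0.667), and after Benjamini-Hochberg adjustment over the 6 ratio tests every p was 0.667. The difference of 1.45 stood beside a pooled SD of 0.73, which joins 1.04 over the controls with 0.0017 over the co-treated pair. It was 0.71 without control 2 and 2.18 without control 1.

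The essential light chain ratio varied less within the control and alcohol pairs than the other 2 ratios did. MYL4 exceeded MYL3 by 3.34 and 2.97 times in the controls, 3.90 and 3.55 times after alcohol, and 3.96 and 3.84 times after co-treatment. All 4 exposed libraries were above both controls. This ratio was not among the planned tests and is given as a description. Light chain FPKM summed to 7.51 and 8.60 times the heavy chain sum in the controls. The light chain sum was 5.84 and 4.76 times the heavy chain sum after alcohol, and 5.38 and 6.70 times after co-treatment. No exposed library reached a control. MYL7 was the largest part of the light chain sum in every library, and MYL3 enters both ratios. Neither separation is therefore independent of the MYL7 and MYL3 differences given above.

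**Figure D3:**
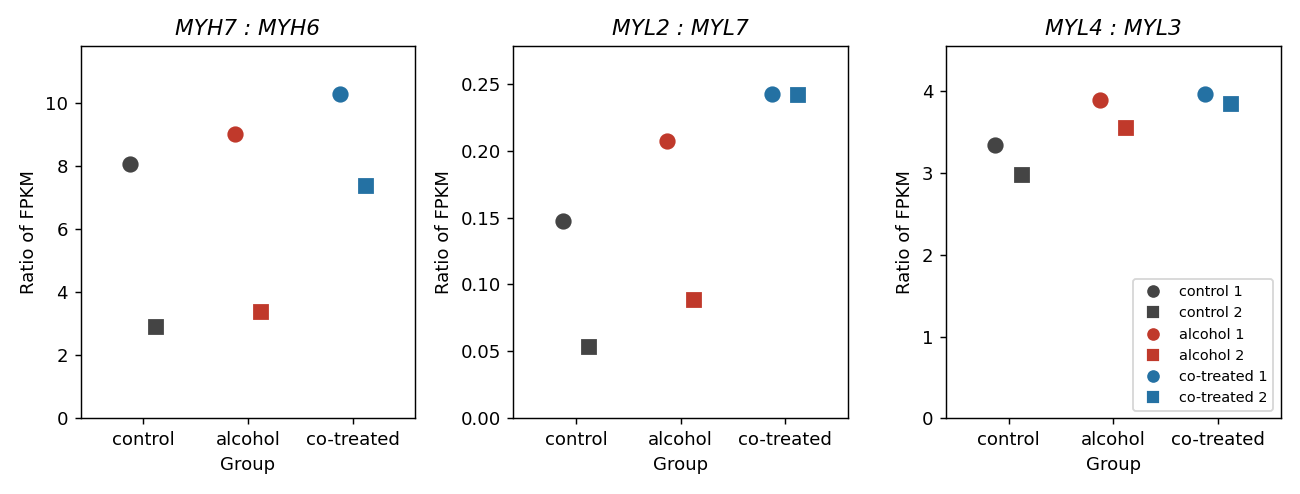
Ratio of FPKM (y axis, from 0, separate scale for each panel) of MYH7 to MYH6, MYL2 to MYL7 and MYL4 to MYL3 in each library, by group. Control 2 and alcohol 2 are low for the first and second ratio, the co-treated pair coincides at 0.242 for MYL2 to MYL7, and MYL4 to MYL3 is lowest in the controls.

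The distance between the 2 libraries of a group was unusually wide for MYL2 and MYH6. Among the 606 genes with a mean of at least 8 log2 CPM, MYL2 had the largest difference between the 2 controls (1.34 on the log2 CPM scale) and MYH6 the 3rd largest (1.01), where the median gene differed by 0.10. Between the alcohol libraries MYL2 was the 3rd most different (1.75) and MYH6 the 16th (0.87), with a median of 0.13. Between the co-treated libraries MYL2 differed by 0.23 and MYH6 by 0.32, and MYH7B had the largest difference of the 606 genes (0.81). MYL7, MYL4 and MYL3 differed by 0.08 to 0.13 between the controls and by 0.40 to 0.53 between the alcohol libraries. Counts of each pair differed beyond counting noise over all genes, with a chi-square per degree of freedom of 4.54 for the controls, 7.30 for the alcohol pair and 4.46 for the co-treated pair, so neither library of a pair was taken for a second deposit of the other. That comparison does not show whether the libraries came from separate cultures.

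**Figure D4:**
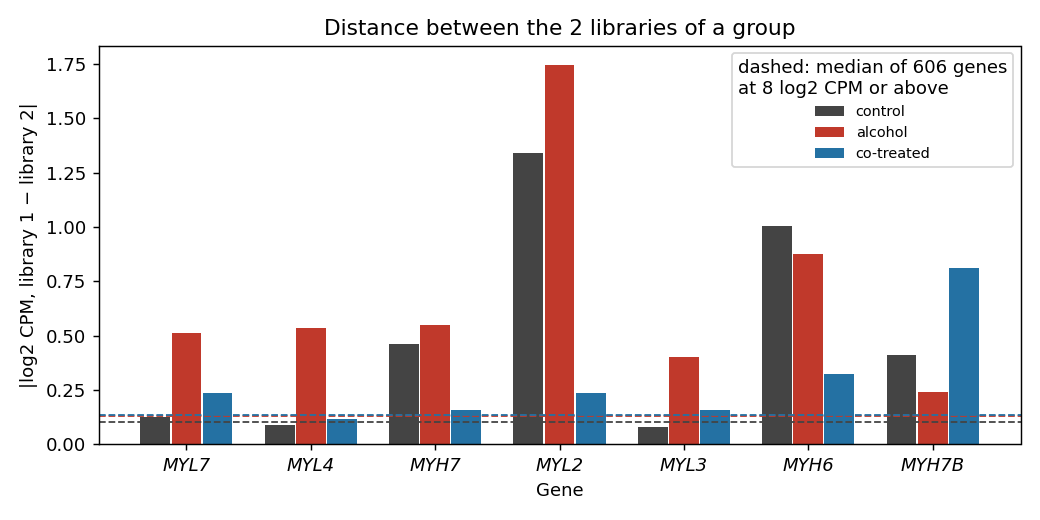
Absolute difference in log2 CPM (y axis, bars from 0) between the 2 libraries of each group for each member, with a dashed line for the median of 606 genes at 8 log2 CPM or above in each group. MYL2 and MYH6 stand far above the lines in control and alcohol, and MYH7B in co-treated.

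Over the 6 libraries the members fell into opposing patterns, described here by Pearson's r of log2 CPM without a test, since all points share their library and depth. MYL3 followed MYL7 (r = 0.986) and MYL4 did so less closely (0.885). MYL2 ran against MYH6 (r = -0.943) and with MYH7 (0.845), and MYH7 ran against MYH6 (-0.826), with which it shares reads. Between MYL2 and MYL7 r was 0.039. The genes named next were picked for the highest r among the 14926 tested, so high values over 6 libraries follow partly from that choice. They are not shown to share regulation with the members. Outside the family, the genes most like MYL7 were REXO2, a mitochondrial oligoribonuclease (r = 0.997), TUBA1A, an α-tubulin (0.997), and SQLE, the squalene epoxidase of cholesterol synthesis (0.995). TUBA1A measured 435 and 498 FPKM in the controls, 325 and 218 after alcohol, and 244 and 308 after co-treatment. Most like MYH6 were COLEC12, a scavenger receptor collectin (r = 0.989), SLC25A53 (0.984) and KLLN (0.983), which spanned 14.5 to 18.9, 0.98 to 1.53 and 1.07 to 1.72 FPKM. Most like MYH7 were AMER2, LOC100507547 and SEMA4F (r = 0.990, 0.981 and 0.979), of which AMER2 was at 0.15 to 0.47 FPKM. Most like MYL2 were GTF2IP4, PEX19 and KRTAP5-AS1 (r = 0.991, 0.988 and 0.980), and PEX19, a peroxisome assembly factor, moved only between 28.4 and 31.9 FPKM.

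Transcripts lying inside the heavy chain genes bear on how MYH7 was measured. MHRT is a long noncoding RNA antisense to MYH7 (chr14:23415450-23417595). Its span holds 954 bases of MYH7 exon sequence in 6 of the 40 MYH7 exons, or 15.7% of the MYH7 transcript. The exons of MHRT were not compared, so the RNA itself may cover less. MHRT measured 2746 and 2369 FPKM in the controls, 3428 and 2660 after alcohol, and 3000 and 2580 after co-treatment. These values were 0.94 to 1.14 times MYH7 in the same libraries. MHRT counts were 13.1% of MYH7 counts in co-treated 2 and 15.8% in control 2, with the other libraries between them. The strand setting of the counting is not given in the sources used here. Without it, reads inside the MHRT span may not be assignable to MHRT or MYH7. MYH7 exons outside that span hold no MHRT sequence. MHRT had log2 fold changes of 0.22, -0.14 and 0.08 in the 3 comparisons (SE 0.16 in each, adjusted p = 0.685, 0.956 and 0.894), and with MHRT counts added to MYH7 those of MYH7 were 0.23, -0.04 and 0.20. The precursor of miR-208b, MIR208B, in an intron of MYH7, had 1 count in alcohol 2 and in co-treated 1 and 0 in the other libraries, which is under the floor. MIR208A and MIR499A, from introns of MYH6 and MYH7B, and the antisense transcript MYHEAS were not listed.

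**Figure D5:**
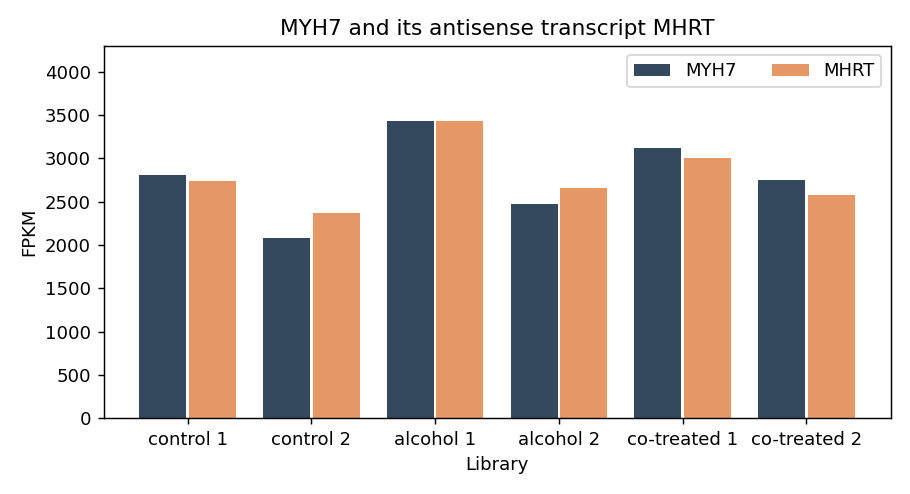
FPKM (y axis, bars from 0) of MYH7 and of MHRT, which lies inside it, in each library. Both bars have nearly equal height in every library, between 2084 and 3429 for MYH7 and between 2369 and 3428 for MHRT.

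Skeletal muscle myosins were nearly absent, at a summed 2.76 to 3.92 FPKM in any library against 18763 to 27288 FPKM for the cardiac members. Of 10 other sarcomeric myosin genes, only MYH3, the embryonic heavy chain, passed the filter on low counts, with 46.8 and 46.0 counts in the controls, 27.9 and 20.0 after alcohol, and 20.9 and 20.3 after co-treatment. Its log2 fold change was -0.97 (SE 0.32, adjusted p = 0.272) for alcohol and -1.20 (SE 0.33, adjusted p = 0.134) for co-treatment, each against control, with no overlap between exposed libraries and controls. MYH4 reached 15.7 counts, MYH1, MYH8 and MYH13 at most 1 count, and MYLPF was not listed.

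Non-muscle and smooth muscle myosin II genes, which serve adhesion, division and vessel tone, were all expressed and none of the 9 passed. Their median log2 fold change was -0.12 for alcohol and -0.43 for co-treatment against control, beside -0.0033 and -0.0017 over all genes. MYL6, the essential light chain of non-muscle myosin, measured 1096 and 1338 FPKM in the controls, 931 and 744 after alcohol, and 819 and 858 after co-treatment (log2 fold change -0.57 and -0.58 against control, SE 0.15 in both, adjusted p = 0.173 and 0.117). MYL9, its smooth muscle regulatory partner, had log2 fold changes of -0.36 and -0.43 (SE 0.16 in both, adjusted p = 0.423 and 0.273).

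Proteins that hold, fold or modify myosin gave no call, with 5 of 8 thick filament partners and 15 of 17 folding, turnover and phosphorylation genes tested. Of the thick filament partners, MYBPHL, an atrial relative of myosin-binding protein C, had 18 and 12 counts in the controls, 32 and 28 after alcohol, and 31 and 32 after co-treatment (log2 fold change 0.97 and 1.04 against control, adjusted p = 0.353 and 0.264). MYOM3, an M-band protein, had 3.94 to 19.8 counts and a log2 fold change of -1.78 (SE 0.66, adjusted p = 0.857) for co-treated against alcohol. UNC45B, the muscle chaperone that folds the myosin head, measured 114 and 104 FPKM in the controls, 101 and 76.3 after alcohol, and 77.2 and 78.1 after co-treatment. Its log2 fold change was -0.53 (SE 0.15, adjusted p = 0.147) for co-treated against control. DAPK3, a kinase that phosphorylates myosin regulatory light chains, measured 52.4 and 46.6 FPKM in the controls, 55.1 and 49.2 after alcohol, and 37.3 and 25.9 after co-treatment. It was lower in both co-treated libraries than in the other 4, by -0.74 against alcohol (SE 0.16, adjusted p = 0.461) and -0.70 against control (SE 0.16, adjusted p = 0.0836) on the log2 scale.

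Transcriptional regulators of the myosin genes were expressed with no call in 19 tested genes of 20. Their median log2 fold change was 0.14 for alcohol against control, with 13 of 19 estimates above 0, and -0.06 for co-treated against alcohol. HAND2, a basic helix-loop-helix factor of the developing ventricle, measured 89.0 and 96.2 FPKM in the controls, 104 and 118 after alcohol, and 97.5 and 80.7 after co-treatment, with a log2 fold change of -0.32 (SE 0.12, adjusted p = 0.857) for co-treated against alcohol. NKX2-5, the cardiac homeobox factor, measured 137 and 98.8 FPKM after co-treatment against 142 to 151 in the other 4 libraries (log2 fold change -0.36 against alcohol, SE 0.14, adjusted p = 0.857). THRB, a thyroid hormone receptor, stayed at 4 to 9 counts and was not tested.

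Chamber markers were measured beside the chamber-type chains. The atrial hormone gene NPPA measured 3622 and 4799 FPKM in the controls, 2965 and 2363 after alcohol, and 2375 and 2966 after co-treatment, below control in all exposed libraries as MYL7 was (log2 fold change -0.69 and -0.70, SE 0.18 in both, adjusted p = 0.168 and 0.113). Over the 9 atrial genes tested, 5 estimates were higher and 4 lower in each comparison with control, with a median of 0.15 for alcohol and 0.02 for co-treatment. KCNJ5, an atrial potassium channel gene, had a log2 fold change of 0.43 (SE 0.17, adjusted p = 0.372) for alcohol against control. Of the ventricular factors, IRX4 measured 34.6 and 40.9 FPKM in the controls, 34.6 and 46.5 after alcohol, and 32.7 and 22.4 after co-treatment (log2 fold change -0.58 for co-treated against alcohol, adjusted p = 0.760), and HEY2 was highest in alcohol 2 at 42.1 FPKM and between 25.4 and 30.6 elsewhere. None of the 9 atrial and 6 ventricular genes tested passed. CASQ2, the calsequestrin of the sarcoplasmic reticulum, and TNNC1, the cardiac troponin C gene, had the smallest p of the 12 cardiomyocyte markers, with log2 fold changes of -0.98 (adjusted p = 0.147) and -0.45 (adjusted p = 0.298) for alcohol against control. ACTA2, the smooth muscle actin gene, was the only listed marker to pass, falling from 507 and 580 FPKM in the controls to 248 and 224 after co-treatment (log2 fold change -1.25, SE 0.20, adjusted p = 0.0203).

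The remaining lists gave no call. All lists were chosen with earlier results of these data known, so the counts below are a description and not a test of the lists. Glycolysis and hypoxia genes summed to 7915 and 7116 FPKM in the controls, 6557 and 4418 after alcohol, and 7368 and 7012 after co-treatment. All 13 tested had lower estimates after alcohol (median log2 fold change -0.55, against -0.0033 over all genes). Of these, 6 had an unadjusted p under 0.05 (edgeR), where 5.78% of all genes were lower at that p. All 13 had higher estimates in co-treated than in alcohol (median 0.46, against 0.0023 over all genes). Of these, 7 had an unadjusted p under 0.05, and the share of all genes higher at that p was not computed. MYL7 and MYL3, by contrast, had estimates near 0 between the exposed groups. The glycolytic enzyme genes ENO1 and PGK1 had log2 fold changes of -1.18 and -0.98 for alcohol against control (adjusted p = 0.119 and 0.151). Alcohol 2, the lowest library for MYL7, was also the lowest for both, at 202 FPKM for ENO1 and 157 for PGK1. Among markers of other cells, the matrix genes FN1 and COL1A2 had log2 fold changes of -0.46 and 0.37 for co-treated against control (adjusted p = 0.136 and 0.265). KDR, a receptor of vascular endothelial growth factor, measured 4.00 and 3.70 FPKM in the controls, 5.18 and 6.53 after alcohol, and 6.67 and 7.70 after co-treatment (log2 fold change 0.86 for co-treated against control, adjusted p = 0.0502), and the endothelial cadherin gene CDH5 had at most 16 counts. The skeletal troponin genes TNNT3 and TNNC2 stayed at or below 23 counts. The endoderm genes APOA1 and AFP lay at 13.1 to 22.3 and 20.4 to 28.4 FPKM, and the pluripotency genes ZFP42 and POU5F1 at 2.58 to 3.64 and 3.95 to 10.2 FPKM.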

How the data were processed

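Per the submitters' processing notes, the tools were HISAT2 2.0.4, Bowtie2 2.2.5 and RSEM 1.2.12 with the hg38 build. The authors deposited expected counts made by RSEM, FPKM values and a transcript length for each gene and single library, with no pooling. The libraries used Illumina protocols, and strand, read length and filters are not given in the sources used here. Depth was 4898287 to 5051448 expected counts per library, so precision for the members was set by spread between libraries more than by counting.

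Expected counts were rounded and tested with the quasi-likelihood F test of edgeR 4.0.16 in R 4.3.3, with TMM factors (0.970 to 1.03), filterByExpr and all 6 libraries in 1 fit, leaving 14926 genes. The test was two-sided with Benjamini-Hochberg adjustment over all genes. FPKM ratios were compared by exact permutation in scipy 1.17.1. DESeq2 1.42.0, limma 3.58.1 on log2(FPKM + 1) and log2(FPKM + 0.1), RLE factors, other filters, a replicate block, the 2 groups alone, omission of each library and sums of MYH6 with MYH7 were alternatives. A sum of MYH7 with MHRT was added after the data were seen. The edgeR script was tested on simulated data for alcohol against control. It recovered 69% of genes changed by a log2 fold of 1 and 92% of those changed by 2, with 17 false calls. After the filter, 99 and 96 changed genes were tested at those folds, so the false calls were not few beside the genes recovered. No smaller fold was simulated.

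Samples were grouped by their titles and treatment labels. The 7 members were named with values in every library. From each other list the genes that passed in any comparison were named, or else the 2 with the smallest p, with absent defining genes, and for MYH6, MYH7, MYL2 and MYL7 the 3 non-members of highest r over 6 libraries (log2 CPM, prior count 2). TNNT2, TAGLN, THRB, VWF, ERG, MYH1, MYH4, MYH8 and MYH13 fall outside that rule and were chosen after their values were seen. Members and lists were chosen with earlier results of these data known. Positions and sequences came from RefSeq and GENCODE on GRCh38.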

Additional observations from a re-analysis of the deposited data

How the results depend on the processing

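None of the 7 members passed in any comparison under most alternatives, and the exceptions were 2 members (MYL3, MYL7) without alcohol 1 for alcohol against control, and for co-treated against control 1 member (MYL3) without alcohol 1 and 1 (MYL3) with DESeq2. Of 21 member estimates (7 members in 3 comparisons), 9 kept their direction in every alternative and 12 changed sign in at least 1, all without a call. With a library left out, estimates for alcohol against control ran from -0.48 to 0.63 for MYH6, -0.054 to 0.50 for MYH7, -0.14 to 0.27 for MYH7B, -0.94 to 1.00 for MYL2 and -0.49 to 0.037 for MYL4. Those for co-treated against alcohol ran from -0.27 to 0.27 for MYH7, -0.61 to 0.20 for MYH7B, -0.014 to 1.72 for MYL2, -0.27 to 0.12 for MYL3, -0.27 to 0.25 for MYL4 and -0.24 to 0.27 for MYL7, and for co-treated against control MYH7B ran from -0.57 to 0.24. Of those that kept their sign, MYH6 ran from -1.10 to -0.21 for co-treated against alcohol (without alcohol 1 and without alcohol 2) and from -1.11 to -0.10 for co-treated against control (without control 1 and without control 2), MYH7 from 0.00099 to 0.46 and MYL2 from 0.26 to 1.60 for the latter (without control 2 and without control 1), and MYL7 and MYL3 from -0.79 to -0.28 and -0.66 to -0.27 for alcohol against control (without alcohol 1 and without alcohol 2). A group reduced to 1 library was assumed to vary like the others. In co-treated against alcohol limma gave 0.0091 for MYH7, 0.0042 for MYL4 and 0.023 for MYL7 under either pseudocount, and the replicate block gave 0.0039 for MYH7 and 0.0035 for MYL7. The cause was not tested.

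The number of all genes that passed moved more. From 10 for alcohol against control it went to 74 with DESeq2, 2 with no filter, 26 with at least 10 counts in every library, 2 and 0 with limma at pseudocounts of 1 and 0.1, 3 with the 2 groups alone, and 1 to 220 with a library left out. From 2 for co-treated against alcohol it went to 5, 1, 0, 0, 1 and 4 under the same settings, and 1 to 24. From 54 for co-treated against control it went to 116 with DESeq2, 15 with no filter, 2 and 1 with limma, 158 with the 2 groups alone, and 2 to 184. With a library left out, differences in the log2 ratio ranged from -0.55 to 0.92, -0.05 to 1.37 and 0.11 to 1.58 for MYH7 to MYH6 in the 3 comparisons and from -0.13 to 1.34, 0.22 to 1.46 and 0.71 to 2.18 for MYL2 to MYL7, so the first of each ratio and the second of MYH7 to MYH6 had no fixed sign.

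No source used here says whether same-numbered libraries were paired. With the number as a replicate block 48, 5 and 136 genes passed in the 3 comparisons and 0 members in each. For co-treated against control, the block moved the SE of MYH6 from 0.29 to 0.15 and its adjusted p from 0.345 to 0.0736 (edgeR). The adjusted p of MYL2 in that comparison moved from 0.501 to 0.159. Deviations of same-numbered libraries correlated at 0.11 (control and alcohol), -0.02 (control and co-treated) and 0.04 (alcohol and co-treated). With 2 libraries a group, depth was not the limit for the members, whereas MYH3, MYBPHL, MYOM3 and the transcripts under 50 counts rest on few reads.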
